A study of Mus musculus with 24 samples.

Results

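The 10 imprinted genes examined in mouse adipose tissue were found by matching their symbols (H19, Igf2, Meg3, Dlk1, Peg3, Mest, Cdkn1c, Plagl1, Grb10 and Snrpn) to the gene identifiers of the count table through GENCODE M21 on GRCm38. They were chosen by name with earlier results of these data known, so their values are given as a description. All 10 were found among 54232 genes, and 8 of them passed the filter of more than 10 counts summed over the 24 libraries, as 26116 genes did. Igf2 (4 counts) and Dlk1 (8 counts) did not.

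Adipose tissue of 24 C57BL6 mice was sequenced, with 4 groups of 6 mice and 1 library per mouse. The mice were 10 weeks old by the description of the series, male by the methods of the study, and the fat was visceral by those methods. Mice had a sham operation or a partial nephrectomy (PNx), which removes most of the kidney mass and is used as a model of renal failure. All mice received a lentivirus by intraperitoneal injection, in which the adiponectin promoter, active in adipocytes, drove either the marker GFP or the NaKtide peptide, a part of the Na,K-ATPase designed to bind the kinase Src. By the methods, the NaKtide construct also produced GFP. The groups are Control (sham, GFP), NaKtide (sham, NaKtide), PNx (nephrectomy, GFP) and PNx+NaKtide (nephrectomy, NaKtide). The comparisons ask what nephrectomy does to the transcriptome of fat and whether NaKtide in adipocytes modifies it.

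An imprinted gene is expressed mainly from the copy inherited from the mother or mainly from the copy inherited from the father. The choice is set by DNA methylation laid down in the germ line, and imprinted genes lie in clusters that share a control region. Many act in fetal growth and fall to low levels after birth. In adipose tissue the paternally expressed genes Dlk1 and Mest are known as an inhibitor of adipocyte differentiation and as a marker of expanding fat cells, and Grb10 restrains signalling from the insulin receptor. The data held no information on the parental copy, since counts were given per gene.

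Levels are given as CPM, the count of a gene as a share of its library's total scaled to the same size, after TMM scaling (trimmed mean of M values). Total counts ranged from 679250 to 2979505 per library. With no count, a level of up to 3 counts is allowed, covering counting error only. By library total, without TMM scaling, this is 1.01 CPM at the greatest depth and 4.42 CPM at the least. A set of 5 libraries stood apart from the other 19 in earlier results of these data (PNx replicates 1, 2, 3 and 6 and NaKtide replicate 6). Fold changes that rest on them are given also without some of them. No fit left out PNx replicates 1, 2, 3 and 6 together. The tissue label was checked on 10 adipocyte genes, all of which had counts. Their summed level was 325 CPM in the median library. It reached 5800 CPM in PNx replicate 6 and, in NaKtide replicate 6, 4700 CPM, and at most 1010 CPM elsewhere. A list of 8 skeletal muscle genes summed to 5140 CPM in NaKtide replicate 6 and to between 3.45 and 36.3 CPM in the other libraries. The sum of 6 endothelial genes was highest in the same libraries (404 CPM in PNx replicate 6, then 70.5 CPM), and at most 26.6 CPM elsewhere. The 10 genes of the epididymis list had a median of 914 CPM and at least 569 CPM in the other 19 libraries, and all 5 libraries that stood apart lay below that (15.5 to 468 CPM). The 10 testis germ cell genes had a median of 401 CPM. They reached 1060 to 1220 CPM in PNx replicates 1 to 3, and lay between 91.2 and 986 CPM elsewhere. The 6 kidney genes summed to 330 to 539 CPM in those 3 libraries, nearly all of it from Slc34a1, and to at most 157 CPM elsewhere. The medians of the epididymis and testis germ cell lists were above the 325 CPM of the adipocyte list. Sums over different genes do not measure the share of a tissue, and that share was not tested.

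The 10 genes spanned a wide range of levels. On the FPKM scale, which divides by exon length and so allows levels to be compared between genes, Mest was by far the highest, with a median of 32.8 over the 24 libraries (8.72 to 78.6). Cdkn1c had a median of 2.38, Plagl1 of 0.828, Meg3 of 0.247, Peg3 of 0.201 and Grb10 of 0.0557. H19, Igf2, Dlk1 and Snrpn had a median of 0. The ranges of all neighbours in this order overlapped, those of Mest and Cdkn1c only between 8.72 and 11.6. The order is that of the counts assigned to each gene. Opposite-strand entries wholly or almost wholly within the exons of H19, Meg3 and Cdkn1c had more counts per kb than Mest. They had 5290 and 6730 (H19), 7200 (Meg3) and 4710 (Cdkn1c), against 1420 for Mest.

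**Figure D1:**
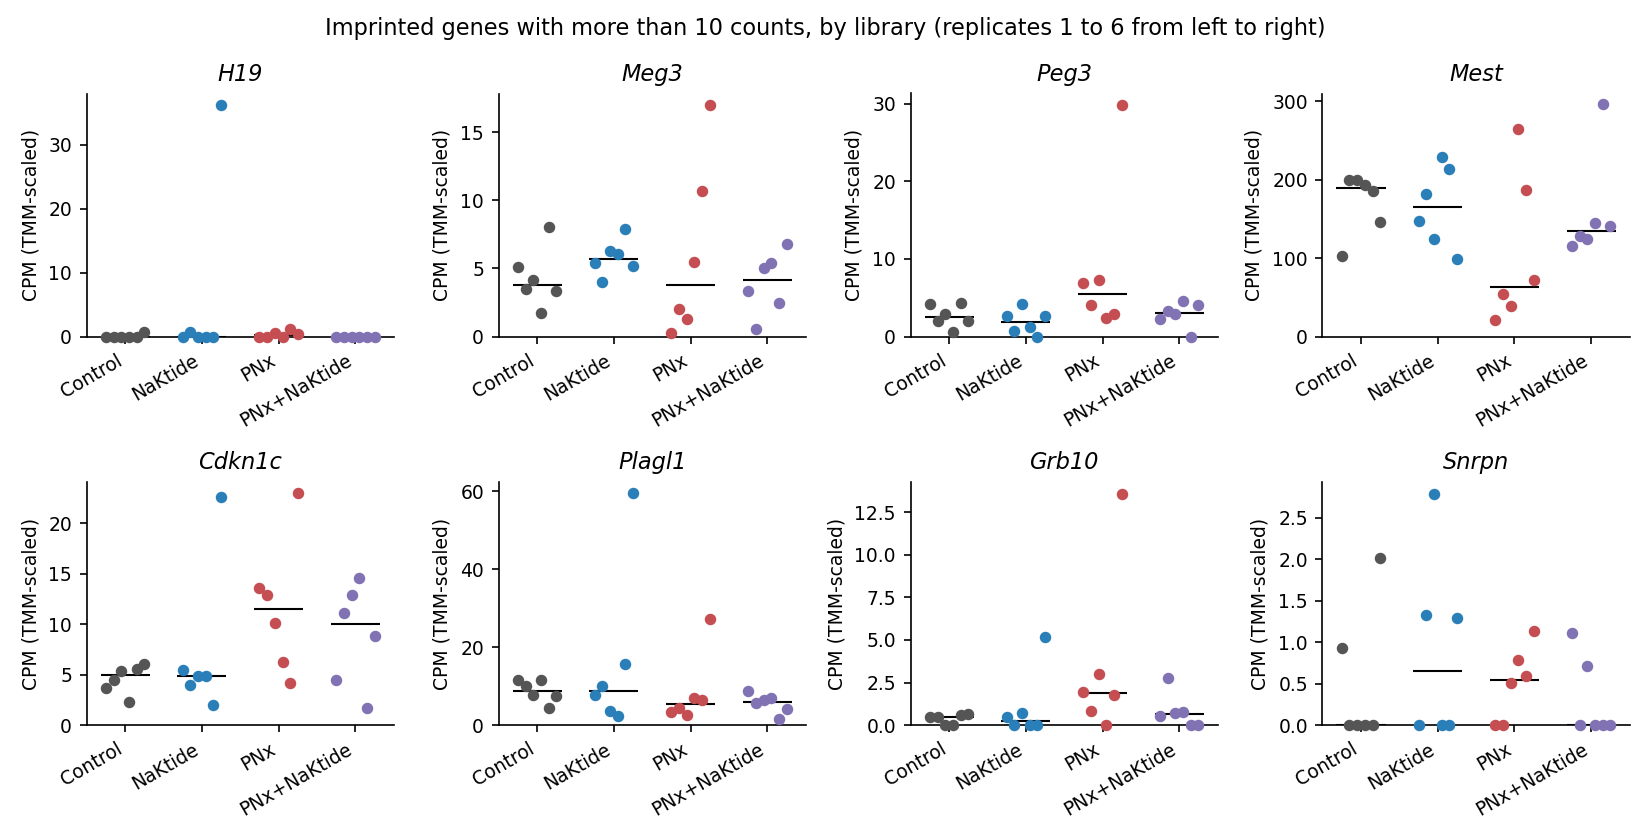
Level of the 8 imprinted genes with more than 10 counts in each library, in TMM-scaled CPM on a linear axis from 0. Points are libraries, ordered by replicate number within each of the 4 groups of 6, and black lines are group medians. Single libraries (NaKtide replicate 6 at 36.2 CPM for H19, PNx replicate 6 at 29.8 CPM for Peg3) lie far above the rest of their groups.

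H19 (ENSMUSG00000000031, chr7:142575529-142578143, minus strand) is a maternally expressed long noncoding RNA and the host of the microRNA Mir675, whose own entry had 0 counts. It had 63 counts in all, of which 56 (88.9%) were in NaKtide replicate 6. The other Control, NaKtide and PNx libraries had at most 2 counts each, and 18 libraries had none. In CPM, NaKtide replicate 6 stood at 36.2 and the next library, PNx replicate 5, at 1.19. All 6 PNx+NaKtide libraries were at 0, which allows up to 1.57 to 2.34 CPM per library (without TMM scaling). The mean of the NaKtide group, 6.14 ± 14.7 CPM (SD, n = 6), is that of 1 library, and no fold change is given for H19.

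On the plus strand, the short genes Gm27786 and Gm27483 lie wholly within the exons of H19, and they held more counts than H19 itself. Their sequences are shown because most counts of this locus were assigned to these 2 entries. They are copied from the GENCODE M21 transcripts, 5′ to 3′. Gm27786 is at chr7:142577849-142577918 and Gm27483 at chr7:142576853-142576923 (GRCm38).

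Gm27786: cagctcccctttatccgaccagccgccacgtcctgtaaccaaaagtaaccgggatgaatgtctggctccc
Gm27483: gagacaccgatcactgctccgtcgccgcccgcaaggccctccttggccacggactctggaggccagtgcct

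The reverse complement of each occurs in 3 of the 7 annotated H19 transcripts, and in the longest of them (2286 bases) it begins at bases 226 and 1221. Gm27786 had 342 of its 370 counts in NaKtide replicate 6, and Gm27483 had 426 of its 478. In CPM that library stood at 221 and 275, and no other library exceeded 1.40 for Gm27786 or 2.71 for Gm27483. The library with most counts of H19 was also the library with most counts assigned to both of these entries. The same library held 5140 CPM of the skeletal muscle list, with 2814 of the 2892 counts of Myh4 and 500 of the 540 counts of Acta1, and 4700 CPM of the adipocyte list. PNx replicate 6, in which the adipocyte list was higher still, had 1 count of H19. The part of muscle RNA in the H19 value was not tested. In such bulk samples, fewer cells of a type and less RNA per cell cannot be told apart.

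Igf2 (ENSMUSG00000048583, chr7:142650766-142666816), the paternally expressed fetal growth factor that shares its control region with H19, had 2 counts in Control replicate 6 and 1 each in Control replicate 3 and NaKtide replicate 1. No PNx or PNx+NaKtide library had a count. An overlapping gene model of the same strand, Gm49394, shares 3596 exon bases with it and had 31 counts, so the counts of both are uncertain. The antisense gene Igf2os had 33 counts, of which 21 were in PNx (7, 2, 9, 0, 0 and 3 in replicates 1 to 6). Over the 24 libraries Pearson's r of H19 with Igf2 on log2 CPM was -0.00 (permutation p = 0.998) and Spearman's rho was 0.36 (permutation p = 0.0849, or 0.17 after Benjamini-Hochberg adjustment over 2 pairs). Without NaKtide replicate 6 and PNx replicate 5, r was 0.39. With Igf2 above 0 in 3 libraries, these values describe counts of 0, not a relation. The 5 genes whose level was most like that of H19 were Ndufa12 (Spearman's rho of 0.70 over 24 libraries), Eri3 (0.65), Abhd17a (0.65), Psma4 (0.64) and Sfr1 (0.64), out of 11391 genes compared. H19 was at 0 in 18 of the libraries, so the ranking rests mostly on ties.

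**Figure D2:**
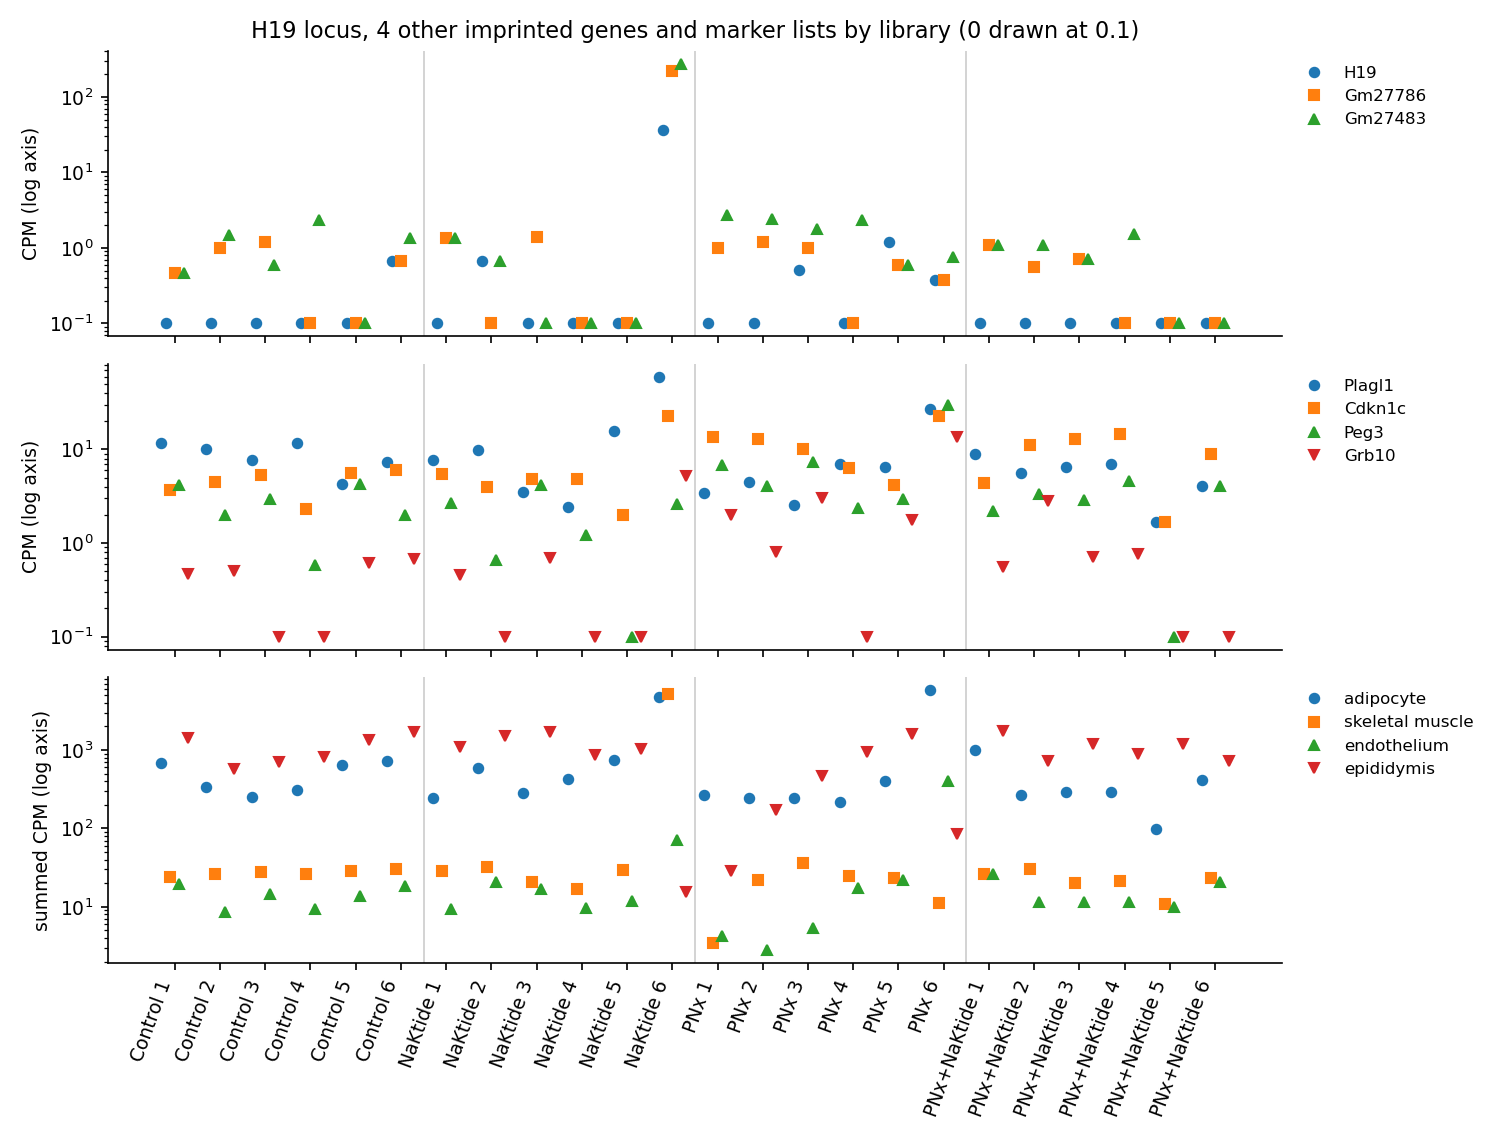
CPM in each of the 24 libraries (log axis, 0 drawn at 0.1): H19 with the 2 opposite-strand genes within its exons (top), 4 further imprinted genes (middle) and summed CPM of 4 marker lists (bottom), with grey lines between groups. NaKtide replicate 6 is high for the 3 genes of the H19 locus and for the skeletal muscle list (5140 CPM), and PNx replicate 6 for Peg3, Cdkn1c, Grb10 and the adipocyte list (5800 CPM).

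Meg3 (ENSMUSG00000021268, chr12:109541001-109571726, plus strand) is a maternally expressed long noncoding RNA, and Dlk1 (ENSMUSG00000040856, chr12:109452823-109463336) is its paternally expressed neighbour. Meg3 ranged from 1.75 to 8.02 CPM in Control (median 3.82), from 3.98 to 7.87 CPM in NaKtide (median 5.73) and from 0.557 to 6.79 CPM in PNx+NaKtide (median 4.16). In PNx the libraries were spread over a far wider range, with 0.246, 2.02, 1.26, 5.50, 10.7 and 17.0 CPM in replicates 1 to 6. The lowest library of all 24 (PNx replicate 1) and the highest (PNx replicate 6) were thus both in this group. The log2 fold change of PNx against Control was 0.48 ± 0.63 (SE), with -0.23 when PNx replicate 6 was left out, 1.29 without PNx replicates 1, 2 and 3, and -1.52 in limma voom with sample weights. The sign of the difference thus changed with the libraries and the method used.

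Gm26906, which lies wholly within the exons of Meg3 on the opposite strand, had 8845 counts against 205 of Meg3. It stood at 178 to 311 CPM in Control, 156 to 509 CPM in NaKtide and 66.4 to 176 CPM in PNx+NaKtide. The PNx libraries fell into a low part (39.2, 79.6 and 47.4 CPM in replicates 1 to 3) and a high part (422, 332 and 345 CPM in replicates 4 to 6). Dlk1 had 2, 3 and 2 counts in PNx replicates 1, 3 and 6 and 1 count in NaKtide replicate 1, and no count elsewhere. Pearson's r of Meg3 with Dlk1 was -0.09 (permutation p = 0.684, n = 24 libraries), Spearman's rho was 0.09 (permutation p = 0.673), and r was 0.09 without PNx replicate 1 and PNx+NaKtide replicate 2. With Dlk1 above 0 in 4 libraries, these values too describe mostly counts of 0, and no relation is read from them.

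Mest (ENSMUSG00000051855, chr6:30723547-30748465, plus strand) encodes a protein of the alpha/beta hydrolase fold and had 5617 counts, more than the other 9 genes together. It ranged from 103 to 200 CPM in Control (median 189), from 98.9 to 229 CPM in NaKtide (median 165) and from 115 to 296 CPM in PNx+NaKtide (median 135). The PNx libraries had 21.4, 54.1, 38.6, 265, 187 and 71.7 CPM in replicates 1 to 6. Of these, 4 lay below every Control library and 1 above every Control library. The 19 libraries outside those that stood apart ranged from 103 to 296 CPM. All 5 that stood apart lay below that range, NaKtide replicate 6 only just (98.9 CPM). The log2 fold change of PNx against Control was -0.69 ± 0.44 (SE), and it moved to -0.02 without PNx replicates 1, 2 and 3 and to -1.20 without PNx replicate 4. The change of PNx+NaKtide against PNx was 0.58 ± 0.44, and -0.11 without PNx replicates 1, 2 and 3. Limma voom with sample weights gave -1.93 ± 0.32 for PNx against Control and 1.68 ± 0.34 for PNx+NaKtide against PNx. The size of both differences thus depended on the libraries and the method used. For PNx+NaKtide against PNx the sign also depended on the libraries used.

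Mest shares 912 exon bases with Copg2, an imprinted gene for a coat protein subunit that is transcribed toward it from the opposite strand and had 5618 counts. Copg2 ranged from 85.2 to 228 CPM in Control and from 21.4 to 76.4 CPM in PNx+NaKtide. It reached 795 CPM in NaKtide replicate 6 and 557 CPM in PNx replicate 6, while its values were 30.1, 24.2 and 16.7 CPM in PNx replicates 1 to 3. In PNx replicate 6 Mest was low (71.7 CPM) and Copg2 high, and in PNx replicates 1, 2 and 3 both were low. In NaKtide replicate 6 Copg2 was high, while Mest (98.9 CPM) was close to the lowest Control library (103 CPM).

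**Figure D3:**
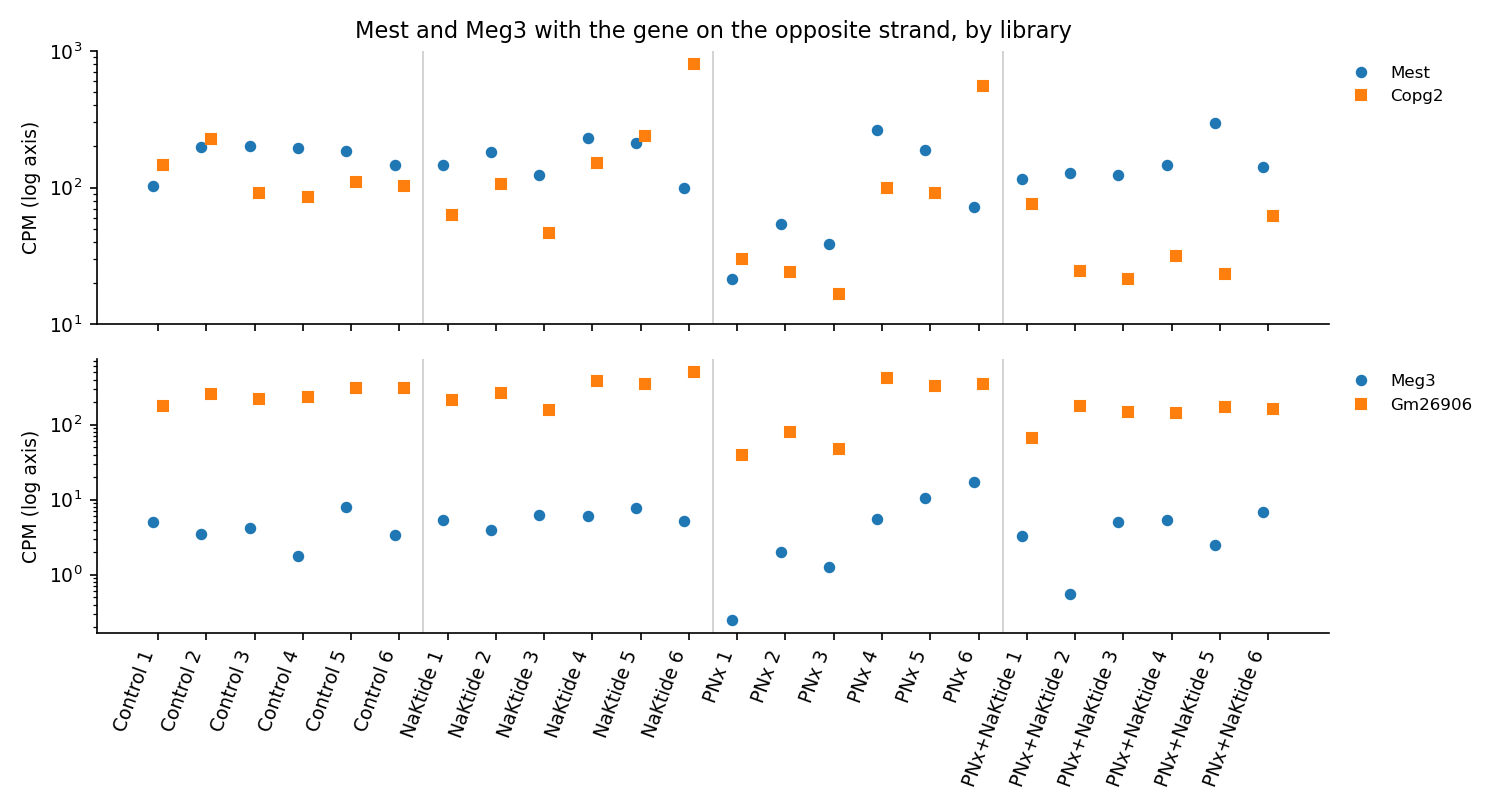
CPM (log axis) of Mest with Copg2 (top) and of Meg3 with Gm26906 (bottom) in each of the 24 libraries, with grey lines between groups. Mest is at 21.4 to 54.1 CPM in PNx replicates 1, 2 and 3, and Copg2 peaks at 795 CPM in NaKtide replicate 6.

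Cdkn1c (ENSMUSG00000037664, chr7:143458339-143461050, minus strand), a maternally expressed inhibitor of cyclin-dependent kinases, ranged from 2.33 to 6.02 CPM in Control (median 4.91). NaKtide replicates 1 to 5 had 1.97 to 5.41 CPM and NaKtide replicate 6 had 22.6 CPM. The PNx libraries had 13.6, 12.9, 10.1, 6.28, 4.16 and 23.0 CPM, and 5 of 6 lay above every Control library. PNx+NaKtide ranged from 1.66 to 14.6 CPM (median 9.99). The log2 fold change was 1.35 ± 0.53 (SE) for PNx against Control and -0.40 ± 0.52 for PNx+NaKtide against PNx, and 1.05 and -0.10 without both PNx replicate 6 and NaKtide replicate 6. Gm44732, 98.4% of whose exon bases lie within Cdkn1c on the opposite strand, had 2993 counts against 396. Gm44732 stood at 49.4 to 78.2 CPM in Control and at 30.8 to 76.0 CPM in PNx+NaKtide. NaKtide replicates 1 to 5 had 53.1 to 82.7 CPM and NaKtide replicate 6 had 323 CPM. PNx replicates 1 to 5 had 26.7 to 69.1 CPM and PNx replicate 6 had 147 CPM. The 2 highest libraries were thus the same as for Cdkn1c. In PNx replicates 1 to 3, however, Cdkn1c lay above every Control library and Gm44732 did not. The log2 fold change of Gm44732 for PNx against Control was 0.10 ± 0.44.

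Plagl1 (ENSMUSG00000019817, chr10:13060504-13131694), a paternally expressed zinc finger transcription factor, reached 59.5 CPM in NaKtide replicate 6. PNx replicate 6 followed with 27.2 CPM, and the other 22 libraries lay between 1.66 and 15.7 CPM. Group medians were 8.85 CPM in Control, 8.80 CPM in NaKtide, 5.49 CPM in PNx and 6.00 CPM in PNx+NaKtide. The log2 fold change of PNx against Control was -0.05 ± 0.62 (SE), and -0.91 without PNx replicate 6. Between PNx and PNx+NaKtide it was -0.59 ± 0.64, and 0.27 without that library. Without PNx replicates 1, 2 and 3 the values were 0.52 and -1.22.

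Peg3 (ENSMUSG00000002265, chr7:6703892-6730431), a paternally expressed zinc finger protein, ranged from 0.583 to 4.32 CPM in Control (median 2.48), from 0 to 4.19 CPM in NaKtide and from 0 to 4.61 CPM in PNx+NaKtide. In PNx it had 6.90, 4.04, 7.32, 2.36, 2.97 and 29.8 CPM, and replicates 1, 3 and 6 lay above every Control library. The log2 fold change of PNx against Control was 1.72 ± 0.65 (SE), and 0.84 without PNx replicate 6. For PNx+NaKtide against PNx it was -1.63 ± 0.65, and -0.75 without that library. Without PNx replicates 1, 2 and 3 the values were 2.01 and -1.94. The PNx libraries that did not stand apart, replicates 4 and 5, lay within the Control range.

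Grb10 (ENSMUSG00000020176, chr11:11930508-12038683), an adaptor protein that binds the insulin and IGF1 receptors, had 83 counts, of which 36 were in PNx replicate 6. Control libraries had at most 0.669 CPM, and 2 of them had none. In PNx it had 1.97, 0.808, 3.03, 0, 1.78 and 13.6 CPM, and 5 of 6 lay above every Control library. NaKtide replicate 6 had 5.17 CPM and the other NaKtide libraries at most 0.698 CPM. The log2 fold change of PNx against Control was 3.06 ± 1.01 (SE), and 1.94 without PNx replicate 6. For PNx+NaKtide against PNx the value was -2.01 ± 0.93. Leaving out PNx replicate 6 gave -0.88, and leaving out PNx+NaKtide replicate 2 gave -2.94. Without PNx replicates 1, 2 and 3 the values of both comparisons were 3.48 and -2.46. The PNx libraries that did not stand apart, replicates 4 and 5, had 0 and 3 counts. Most libraries held 0 to 3 counts, so these folds rest on few reads.

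Snrpn (ENSMUSG00000102252, chr7:59982495-60140219), a paternally expressed gene for a splicing protein, had 23 counts in 11 libraries and at most 4 in any of them. It shares 216 exon bases with Snurf and 589 with Gm38393 on its own strand, which had 0 and 1 counts.

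**Figure D4:**
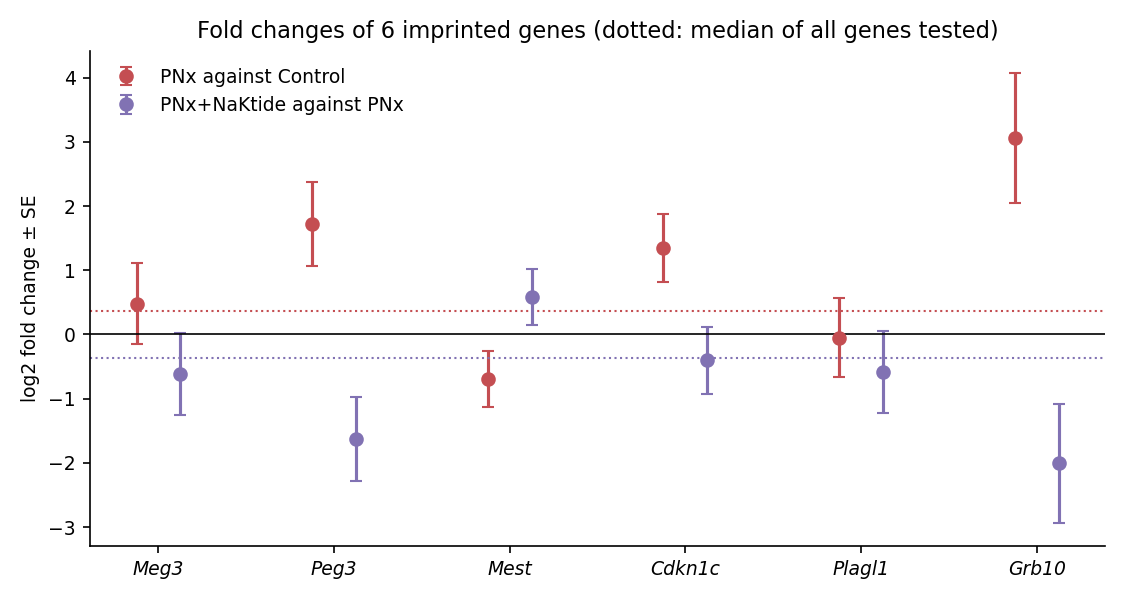
Log2 fold change (points) with its standard error (bars) from the edgeR fit for the 6 imprinted genes with most counts, in the comparisons of PNx with Control and of PNx+NaKtide with PNx. Both use the same 6 PNx libraries, and dotted lines mark the median over all genes tested (0.36 and -0.37).

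In edgeR's quasi-likelihood test at a Benjamini-Hochberg adjusted p under 0.1, none of the 8 genes that passed the filter was called in any of 5 contrasts. For PNx against Control 0.0766% of all genes were called, and 0% in each of the other 4 contrasts. At an unadjusted p under 0.05, Peg3, Cdkn1c and Grb10 were higher in PNx than in Control and no member was lower, where 18.5% of all genes were higher and 6.88% lower. For PNx+NaKtide against PNx, Peg3 and Grb10 were lower and no member higher, where 8.6% of all genes were lower and 4.07% higher. A single member (H19) passed that p for NaKtide against Control, 2 (H19 and Plagl1) for PNx+NaKtide against NaKtide and 2 (H19 and Grb10) for the interaction of nephrectomy and NaKtide, where 3.95%, 4.09% and 9.27% of all genes did, and for H19 this value rests on NaKtide replicate 6. These counts are read only as a description of the members. DESeq2 called 3 members for PNx against Control and 1 for PNx+NaKtide against PNx, out of 6 and 5 to which it gave an adjusted p, beside 34.9% and 9.63% of all such genes, and limma voom with sample weights called 6 and 1, beside 63.8% and 44.0%. In the other 3 contrasts DESeq2 called no member, and voom called 1, for the interaction. No member had groups that did not overlap in either of these comparisons, as was the case for 0.486% and 0.456% of all genes.

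The highest library was PNx replicate 6 or NaKtide replicate 6 for 6 of the 8 members that passed the filter, and for Cdkn1c, Plagl1 and Grb10 these were also the 2 highest. Over all 26116 genes tested the highest library was one of these 2 for 24.8%, and they were the 2 highest for 8.68%. H19 passed the filter only through NaKtide replicate 6, without which it had 7 counts, and the count without H19 was 5 of 7. Since a gene with few counts can pass through its highest library alone, nothing is read from these counts about the members. The adipocyte and endothelial lists were highest in the same 2 libraries, and the part of these cells in the members' levels was not tested.

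A list of 55 other imprinted genes was examined beside the members, and 45 of them passed the filter. In edgeR none was called in any contrast. At an unadjusted p under 0.05, 9 of 45 were higher (18.5% of all genes) and 1 lower in PNx than in Control, and 1 was higher and 7 lower (15.6%, beside 8.6% of all genes) in PNx+NaKtide than in PNx. The median log2 fold change of the list was 0.66 for PNx against Control (0.36 over all genes) and -0.86 for PNx+NaKtide against PNx (-0.37 over all genes). DESeq2 called 14 of the list for PNx against Control, 13 of them higher, and 3 for PNx+NaKtide against PNx. These were 36.8% and 11.1% of the genes of the list with a DESeq2 adjusted p, beside 34.9% and 9.63% of all such genes. Limma voom called 28 (62.2%) and 20 (44.4%), beside 63.8% and 44.0% of all genes. The shares by both tools were near those of all genes. At an unadjusted p under 0.05 in edgeR, 1 gene was higher (2.22%) and none lower for NaKtide against Control. For PNx+NaKtide against NaKtide 2 were higher (4.44%) and 4 lower (8.89%), and for the interaction none was higher and 5 were lower (11.1%). Of all genes, 3.95%, 4.09% and 9.27% passed that p in either direction. There DESeq2 called 0, 0 and 1 and voom 0, 0 and 10. In the interaction these were 3.7% and 22.2% of the list, beside 0.58% and 25.5% of all genes. In edgeR without PNx replicate 4, 5 or 6 the count for PNx against Control was 13, 9 or 8, beside 33.2%, 23.2% or 14.8% of all genes called, so the absence of calls depends on each of these libraries. The share of all genes called rose with the count of the list.

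The genes of this list with the largest fold changes (and at least 1 CPM in the mean) were retrotransposon-derived Peg10, Usp29 and Asb4 for PNx against Control. Peg10, a gene needed for the placenta, had 1 count in the Control libraries and none in NaKtide, and stood at 5.67, 6.86, 4.79, 0, 0.594 and 2.26 CPM in PNx replicates 1 to 6. Its log2 fold change was 4.48 ± 1.12 (SE, edgeR adjusted p = 0.128), and for PNx+NaKtide against PNx it was -2.34 ± 0.93 (edgeR adjusted p = 0.357). Usp29, which shares a promoter region with Peg3, had 2.02 ± 1.95 CPM in Control and 12.6 ± 14.0 CPM in PNx (mean ± SD, n = 6 each, edgeR adjusted p = 0.155). Asb4 had 0.634 ± 0.354 and 3.03 ± 3.19 CPM (edgeR adjusted p = 0.169). Without PNx replicates 1, 2 and 3 the fold change of Peg10 was 2.68 and -0.63 in the 2 comparisons. For PNx against Control that of Usp29 moved from 2.64 to -3.14 and that of Asb4 from 2.19 to -1.63, so the sign for both turned without these 3 libraries. The largest changes of PNx+NaKtide against PNx were those of Peg10, the matrix proteoglycan gene Dcn (-2.35 ± 1.00) and the decoy receptor gene Tnfrsf23 (-2.15 ± 0.85). Without PNx replicate 6 and NaKtide replicate 6, Dcn stood at 0.71, and without PNx replicates 1, 2 and 3, Tnfrsf23 stood at -0.77. For NaKtide against Control the rule further named Peg10 (-1.22 ± 1.26), Ndn (1.21 ± 0.93) and Blcap (1.04 ± 0.61). For PNx+NaKtide against NaKtide it named Peg10 (3.36 ± 1.47), Copg2 (-2.55 ± 0.76) and Nnat (-1.91 ± 0.82). For the interaction it named Dcn (-2.91 ± 1.38), Peg13 (-2.77 ± 0.81) and Copg2 (-2.65 ± 1.03). Peg10 had 6 counts in PNx+NaKtide, so its values here rest on few reads. Without PNx replicate 6 and NaKtide replicate 6 the fold changes were 0.29 for Ndn, -0.32 for Blcap, -1.59 for Copg2 and -0.75 for Nnat. Those of Peg10 stayed at -1.22 and 3.36. In the interaction they were 1.19 for Dcn, -2.18 for Peg13 and -0.30 for Copg2. The antisense transcript Kcnq1ot1, of the cluster that holds Cdkn1c, was singled out after its values were seen, and shares 121 exon bases with Kcnq1 on the opposite strand. It stood at 5.17 CPM in NaKtide replicate 6, at 5.28 CPM for the same replicate of PNx and between 44.4 and 158 CPM in all other libraries.

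Of 15 genes of the IGF pathway, 14 passed the filter and edgeR called none in any contrast. At an unadjusted p under 0.05, 3 were higher in PNx than in Control and 3 lower in PNx+NaKtide than in PNx, which is 21.4% in each case, beside 18.5% and 8.6% of all genes. DESeq2 called 3 (27.3% of 11 with an adjusted p) and 0, and voom 8 (57.1%) and 5 (35.7%), shares that lay below those of all genes by the same tools (34.9% and 9.63%, 63.8% and 44.0%). In edgeR at that unadjusted p, 1 passed for NaKtide against Control, 2 for PNx+NaKtide against NaKtide and 4 for the interaction. These were 7.14%, 14.3% and 28.6% of the list, beside 3.95%, 4.09% and 9.27% of all genes. DESeq2 called 0 in each of them and voom 0, 0 and 4, the last being 28.6%, beside 25.5% of all genes. The ligand gene Igf1 had 2.87 ± 1.67 CPM in Control, 7.05 ± 9.62 CPM in NaKtide, 11.9 ± 23.4 CPM in PNx and 2.92 ± 1.82 CPM in PNx+NaKtide (mean ± SD, n = 6). Its log2 fold change was 2.03 ± 0.84 for PNx against Control (edgeR adjusted p = 0.155) and -2.01 ± 0.85 for PNx+NaKtide against PNx (edgeR adjusted p = 0.366). The binding protein genes Igfbp5 (2.31 ± 1.10 and -2.91 ± 1.15) and Igfbp4 (1.18 ± 0.88 and -1.55 ± 0.90) had these values in the same 2 comparisons, which share the PNx libraries. In NaKtide against Control, Igfbp5, Igfbp4 and Igf1 had log2 fold changes of 2.23 ± 1.10, 1.45 ± 0.89 and 1.31 ± 0.85. In PNx+NaKtide against NaKtide, Igfbp5, Igfbp4 and the receptor substrate gene Irs1 had -2.84, -1.82 and -1.81, and in the interaction Igfbp5, Igf1 and Igfbp4 had -5.14, -3.31 and -3.0, with SEs between 0.87 and 1.59. Without PNx replicate 6 and NaKtide replicate 6 the fold changes of Igfbp5, Igf1 and Igfbp4 were -0.72, -0.25 and -1.24 for PNx against Control and 0.12, 0.27 and 0.87 for PNx+NaKtide against PNx, all of the opposite sign. For NaKtide against Control they were 0.31, 0.13 and 0.27, and for the interaction -0.19, 0.13 and 0.59. For PNx+NaKtide against NaKtide, Igfbp5, Igfbp4 and Irs1 stood at -0.91, -0.64 and -0.30. The values of these named genes thus rest largely on these 2 libraries. Other genes of the list were not examined without them. Among those was Igf2bp1, which fell below the 1 CPM needed to be named. It had 4.40 ± 1.18 for PNx against Control and -4.53 ± 1.57 for the interaction. Of 8 genes that maintain imprints, 7 passed the filter and none was called by edgeR, and at an unadjusted p under 0.05 only Zfp57 passed, in PNx against Control. DESeq2 called 2 (28.6%) and voom 4 (57.1%) in that comparison, below the shares of all genes. Zfp57, a zinc finger protein that keeps methylation at imprinted control regions, had a log2 fold change of 1.71 ± 0.82 for PNx against Control (edgeR adjusted p = 0.189), and that of Ctcf, which binds the control region of H19 and Igf2, was -1.03 ± 0.52 (edgeR adjusted p = 0.204). Without PNx replicates 1, 2 and 3 these were 0.15 and -0.25. Zfp445, Uhrf1 and Dnmt1, the other regulators named by the same rule, had log2 fold changes between -1.08 and 0.53 in the contrasts that named them.

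Since most members share exon bases with a gene of the opposite strand, the counts of both strands were compared per kb of exon. Of the 10 members, 7 had at least 1 such partner. The partner had more counts per kb for H19 (5290 and 6730 against 25.6), Meg3 (7200 against 11.3), Cdkn1c (4710 against 194), Igf2 (6.18 against 0.699) and Snrpn (12.1 against 10.7), and fewer for Mest (1100 against 1420) and Plagl1 (21.1 against 52.9). The largest case among the other imprinted genes was Gnas, the gene of the stimulatory G protein alpha subunit, with 4347 counts, and Gm20721, 99.0% of whose exon bases lie within Gnas on the opposite strand, with 494148 counts. The same comparison was made over 542 pairs with more than 10 counts in the pair. In these, at least 90% of one gene's exon bases lie within a gene of more exon bases on the opposite strand. This rule was made after the values were seen. The embedded gene had more counts per kb in 71.0% of these pairs. Among 17 such pairs of imprinted genes this was so in 8 (47.1%), and 6 of the other 9 were microRNA genes within Rtl1 that had no counts. The library kit was stranded by the labels, and the sources used here did not give the strand setting of the counting. H19, Meg3 and Cdkn1c thus held a small part of the counts of their loci, and the strand from which the reads came was not tested.

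**Figure D5:**
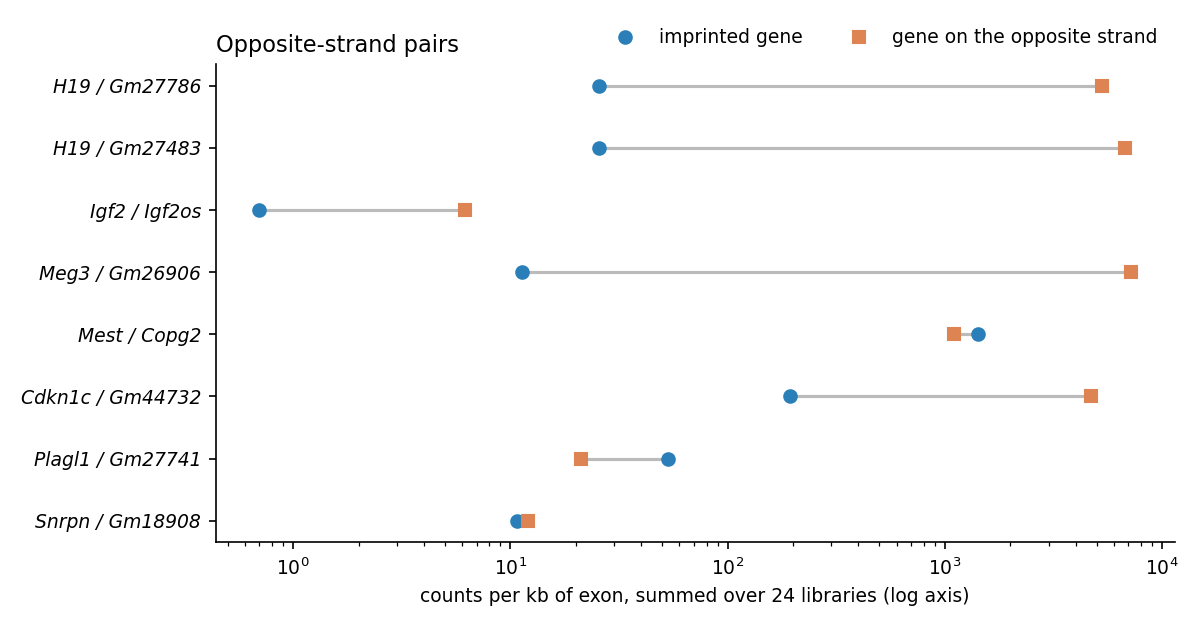
Counts per kb of exon summed over the 24 libraries (log axis) for each imprinted gene (circles) and the gene that shares exon bases with it on the opposite strand (squares). The opposite-strand gene is higher for H19, Igf2, Meg3, Cdkn1c and Snrpn, and lower for Mest and Plagl1.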

How the data were processed

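RNA of 24 libraries (4 groups of 6, grouped by the labels) was prepared with a stranded mRNA kit. Paired reads of 50 bases were made, and per the paper's methods the authors trimmed them (Trimmomatic 0.38), aligned them to GRCm38 (HISAT2 2.1.0) and counted reads per gene. The tables that the authors deposited hold raw counts of each gene, size-factor normalized values (not used here) and FPKM, in which counts are scaled for depth and exon length. The length behind FPKM was within 1% of the union of GENCODE M21 exons for 96.2% of 26061 genes. The members and gene lists were chosen with earlier results of these data known. Genes with more than 10 counts in all were fitted with edgeR 4.0.16 in R 4.3.3 (TMM, robust quasi-likelihood F-test, 1 fit of 4 group means). Benjamini-Hochberg adjustment ran over all 26116 genes, with a threshold of 0.1. SEs are |log2 fold change|/√F. With a common dispersion of 0.509, depth ran from 679250 to 2979505 counts. Correlations used 100000 permutations. The text names the members, their opposite-strand partners, the 3 genes of each list with the largest fold changes among those of at least 1 CPM per contrast, and the 5 genes most like H19 by Spearman correlation. Alternatives were DESeq2 1.42.0, limma 3.58.1 voom with sample weights, other scaling, filters, samples and a replicate block.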

Additional observations from a re-analysis of the deposited data

Results flagged for a closer look

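Of 25 combinations of a member and a group with at least 4 counts in a library, 9 held a library separated from the nearest other by more than Dixon's critical value for 6 samples. Chance gives about 1 in 20 over groups taken without regard to their values, but here a combination entered only with a library of at least 4 counts, which favours groups with 1 high library, so 9 of 25 is not set against it. Of the 9, 7 were in NaKtide replicate 6 or PNx replicate 6. In NaKtide replicate 6 these were H19 at 36.2 CPM (next 0.663), Plagl1 at 59.5 CPM (next 15.7), Cdkn1c at 22.6 CPM (next 5.41) and Grb10 at 5.17 CPM (next 0.698). In PNx replicate 6 they were Peg3 at 29.8 CPM (next 7.32), Plagl1 at 27.2 CPM (next 7.07) and Grb10 at 13.6 CPM (next 3.03). The other 2 were Mest in PNx+NaKtide replicate 5 at 296 CPM (next 145) and Grb10 in PNx+NaKtide replicate 2 at 2.79 CPM (next 0.768), the latter from 5 counts.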

How the results depend on the processing

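For the 45 other imprinted genes tested, edgeR called 0 for PNx against Control, and the count was 14 with DESeq2 size factors (all higher), 2 of 20 with the filterByExpr filter, 14 with DESeq2, 28 with limma voom and 13 without PNx replicate 6 and NaKtide replicate 6, while 33.3%, 17.9%, 34.9%, 63.8% and 21.8% of all genes were called. Leaving out single libraries gave 0 to 13. For PNx+NaKtide against PNx DESeq2 called 3 and voom 20 (9.63% and 44.0% of all genes), and for the interaction 1 and 10 (0.58% and 25.5%). No other alternative called any gene of the list. The correlation of H19 with Igf2 was 0.04 with a prior count of 0.5. Of 246 alternative fold changes of the 6 members, 31 moved by 1 SE or more and 20 changed sign. Same-numbered libraries did not deviate together in every pair (correlations from -0.592 to 0.712), so the numbers were not taken as pairs, and with the replicate block the list count stayed at 0 in each contrast. Members with few counts are limited by depth.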
